A study of Mus musculus with 18 samples.

Results

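*Cd36*, *Cxcl13*, *Pde1c* and *Ildr2* were followed through 3 bulk RNA-Seq experiments on mouse embryonic lungs. These 4 of 23420 genes were chosen by their values in the *Wnt5a*; *Sox9-Cre* experiment, in which every mutant library lay below every control library. Their values there are thus a description and carry no test. The *Vangl1/2* and the *Wnt5a*; *Dermo1-Cre* experiments played no part in the choice, and the 4 genes were tested in both.

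Each experiment holds 3 libraries from control and 3 from mutant lungs, 18 in all. In the *Vangl1/2* experiment at E12.5 (E for embryonic day), control lungs were Vangl1-/- and mutant lungs Vangl1-/-; Vangl2-/-, so that both groups lacked *Vangl1* (a gene-trap allele) and differed in *Vangl2*, which had been deleted by the early and ubiquitous *Sox2-Cre*. In the *Dermo1-Cre* experiment at E12.5, controls were Wnt5af/+; Dermo1Cre and mutants Wnt5af/f; Dermo1Cre. *Dermo1-Cre* acts in the mesenchyme. In the *Sox9-Cre* experiment at E13.5, controls were Wnt5af/+; Sox9Cre and mutants Wnt5af/f; Sox9Cre. *Sox9-Cre* was used for the epithelium and becomes active only after branching has begun. The controls of both *Wnt5a* experiments carried Cre and 1 floxed allele. The number of embryos behind a library is not stated in the sources used here, so the p-values measure only the spread between these libraries. The deposited values, called normalized counts here, are read counts per gene corrected by the authors with 1 size factor per library. Between 15945393 and 19814346 reads per library lay on genes, and size factors lay between 0.952 and 1.07, so that a normalized count stands for about 1 read.

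The 4 genes belong to different pathways. *Cd36* encodes a membrane glycoprotein that takes up long-chain fatty acids and binds thrombospondin and oxidised lipoproteins, and is found on capillary endothelium, cardiomyocytes, adipocytes and macrophages. *Cxcl13* encodes the chemokine ligand of the receptor Cxcr5. It draws B cells into follicles, is made by stromal organizer cells of lymphoid tissue, and can be induced by retinoic acid in lymph node primordia. *Pde1c* encodes a phosphodiesterase that hydrolyses cAMP and cGMP and is switched on by calcium, and is known from smooth muscle, heart and olfactory neurons. *Ildr2* encodes a member of the angulin family with Lsr and Ildr1, membrane proteins found where 3 epithelial cells meet.

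On GRCm38 (mm10, GENCODE annotation), *Cd36* lies on the minus strand at chr5:17781690-17888801, *Cxcl13* on the plus strand at chr5:95956951-95961068, *Pde1c* on the minus strand at chr6:56069804-56569103 and *Ildr2* on the plus strand at chr1:166254139-166316823. The union of their annotated exons spans 3590 bases for *Cd36*, 1150 for *Cxcl13*, 20067 for *Pde1c* and 8251 for *Ildr2*. Reads in a bulk table count whole exons, so a value of *Pde1c* is spread over far more sequence than the same value of *Cxcl13*. *Ildr2* overlaps 5330438I03Rik on the opposite strand and *Pde1c* overlaps Gm44413 on its own strand. Neither of these is listed in the tables, and whether the counting used strand is not given in the sources used here.

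The 250 bases before an annotated start are shown for the 4 genes, since they share a direction in 1 experiment and their upstream sequences can be compared for common motifs. All 4 symbols matched the promoter table of RefSeq (GRCm38.p6). For *Pde1c*, which has 3 starts there, the most upstream is printed. Windows lie at chr5:17835897-17836146 (minus strand) for *Cd36*, chr5:95956689-95956938 (plus) for *Cxcl13*, chr6:56369635-56369884 (minus) for *Pde1c* and chr1:166253889-166254138 (plus) for *Ildr2*. Capitals mark matches to the searched motifs, read 5′ to 3′ on the gene's strand.
Cd36: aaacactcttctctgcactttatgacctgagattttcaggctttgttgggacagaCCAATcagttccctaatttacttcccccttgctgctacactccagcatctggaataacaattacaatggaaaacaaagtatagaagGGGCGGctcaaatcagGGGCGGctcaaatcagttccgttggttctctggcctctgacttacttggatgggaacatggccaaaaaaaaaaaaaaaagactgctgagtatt
Cxcl13: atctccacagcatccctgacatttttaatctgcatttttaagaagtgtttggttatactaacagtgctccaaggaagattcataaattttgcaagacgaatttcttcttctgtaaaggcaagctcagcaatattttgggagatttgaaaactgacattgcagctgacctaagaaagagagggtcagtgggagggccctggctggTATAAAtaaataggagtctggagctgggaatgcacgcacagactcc
Pde1c: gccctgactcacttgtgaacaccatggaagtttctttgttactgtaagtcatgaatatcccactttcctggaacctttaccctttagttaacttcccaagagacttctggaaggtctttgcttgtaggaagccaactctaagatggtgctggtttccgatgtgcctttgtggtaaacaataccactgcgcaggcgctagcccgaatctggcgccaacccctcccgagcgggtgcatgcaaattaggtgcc
Ildr2: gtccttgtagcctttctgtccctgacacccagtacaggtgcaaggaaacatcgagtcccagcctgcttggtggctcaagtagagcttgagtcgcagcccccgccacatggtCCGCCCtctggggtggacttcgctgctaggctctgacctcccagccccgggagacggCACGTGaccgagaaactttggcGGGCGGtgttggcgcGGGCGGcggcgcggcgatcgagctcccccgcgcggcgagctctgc

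The 4 windows had little in common. *Cxcl13* had a TATA box (TATAAA) 46 bases before the start, a motif that 12.4% of the 32851 windows of this length hold on either strand. *Cd36* had a CCAAT box (CCAAT, 33.8% of windows) and 2 GC boxes (GGGCGG, 32.7%) within a repeated stretch. *Ildr2* had 3 GC boxes, 1 of them on the other strand, and an E-box (CACGTG, 6.02%). The printed *Pde1c* window held none of the motifs, and that at chr6:56362811-56363060 held 2 CCAAT boxes. The TCF/LEF core CTTTGAT (3.21% of windows), the cAMP response element TGACGTCA (1.55%), a direct repeat of AGGTCA with 1 base between, as bound by PPAR with RXR (0.0335%), and one with 5 bases between, as bound by retinoic acid receptors (0.00913%), were not matched in any window of the 4 genes. None of the motifs overlap each other in these windows. The windows of *Cd36* and *Cxcl13* were poor in G and C (43.2% and 42.0%, median of all windows 52.4%), while that of *Ildr2* reached 66.8% and held 23 CpG sites against 3 in *Cd36*, 2 in *Cxcl13* and 7 in the printed window of *Pde1c*.

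The libraries carried the marks of embryonic lung. The lung epithelial gene *Nkx2-1* lay between 2100 and 2884 normalized counts in the 18 libraries, and the lung mesenchymal gene *Tbx4* between 2967 and 4292. Of the targeted genes, *Vangl2* was lower in the *Vangl1/2* mutants (339 ± 64.9 against 85.3 ± 5.0, SD, n = 3) and was the 1 gene of 14303 that limma called there. *Vangl1*, trapped in both groups, had 162, 219 and 113 in the controls and 239, 274 and 242 in the mutants, higher in every mutant (log2 fold change 0.65, SE 0.23, adjusted p = 0.233, limma), and 409 to 508 in the libraries of the other experiments. *Wnt5a* was 464 ± 30.8 in *Dermo1-Cre* controls and 327 ± 103 in mutants (472, 429.6 and 489 against 317, 436 and 229.7, adjusted p = 0.406, limma), where mutant replicate 2 lay above control replicate 2. It was 451 ± 23.5 and 417 ± 48.0 in the *Sox9-Cre* groups, whose ranges overlap (473, 453 and 426 against 442, 362 and 448). These reads come from all cells of the lung and from the whole gene, so they do not check the labels of the *Sox9-Cre* libraries. In the *Vangl1/2* experiment, control replicate 2 stood apart from the other controls. Its summed lung mesenchyme markers were 89392 normalized counts against 53448 and 41678 in the other 2 controls and 65749 to 84880 in the mutants. The values of the 4 genes and the counts of list genes in that experiment are therefore also given without it. Without *Dermo1-Cre* mutant replicate 2, the values of that experiment were -0.50 for *Cd36* (adjusted p = 0.477), -0.18 for *Cxcl13* (0.840), 0.44 for *Pde1c* (0.564) and 0.14 for *Ildr2* (0.689, limma).

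In the *Sox9-Cre* lungs, all 4 genes were lower in the mutants at E13.5, as the choice required. *Cd36* had 236, 199 and 274 normalized counts in the controls and 135, 107 and 124 in the mutants (means 236 ± 37.6 and 122 ± 14.2, SD, n = 3). *Cxcl13* had 392, 223 and 185 in the controls and 124, 89.5 and 96.4 in the mutants (267 ± 111 and 103 ± 18.2). The controls of *Cxcl13* spread widely, with replicate 1 far above the other two, whereas its mutants lay close together. *Pde1c* had 72.4, 71.7 and 75.8 in the controls and 34.2, 28.2 and 23.6 in the mutants (73.3 ± 2.2 and 28.6 ± 5.3). *Ildr2* had 209, 174 and 241 in the controls and 130, 126 and 100 in the mutants (208 ± 33.6 and 119 ± 15.9).

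On the log2(normalized count + 1) scale the differences were -1.34 for *Pde1c*, -1.30 for *Cxcl13*, -0.95 for *Cd36* and -0.80 for *Ildr2*, or 0.395, 0.407, 0.519 and 0.573 times the control level. Leaving out 1 library at a time moved them most for *Cxcl13* (-1.52 to -0.98, the smaller fall without control replicate 1). *Pde1c* stayed between -1.47 and -1.21, *Cd36* between -1.06 and -0.83 and *Ildr2* between -0.92 and -0.69. The rule is met by many genes, since 623 of 14293 tested genes (4.36%) were lower in every mutant library. Among these, *Pde1c* ranked 29th, *Cxcl13* 31st, *Cd36* 56th and *Ildr2* 76th by the size of the fall. By the gap between the lowest control and the highest mutant, *Pde1c* ranked 4th (71.7 against 34.2), *Cxcl13* 16th (185 against 124), *Cd36* 17th (199 against 135) and *Ildr2* 25th (174 against 130). Just inside the rule, *Plk1s1* had 574.9 as its lowest control and 574.8 as its highest mutant. Just outside it, among genes with a fall as large as that of the 4, *Hand2* had 86.6 as its lowest control and 86.9 as its highest mutant. The 4 genes thus lay away from the edge of the rule, which describes the choice and carries no test.

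The 3 *Pde1c* controls in this experiment held 73, 72 and 76 reads (SD 2.1), while counting alone gives an SD of 8.58, the square root of their mean. Of 24 sets of 3 libraries over the 4 genes and the 6 groups, 3 had an SD below the square root of their mean count. Counting error, not this narrow spread, is therefore the least error to assume for that mean, and it leaves out the spread between lungs.

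**Figure D1:**
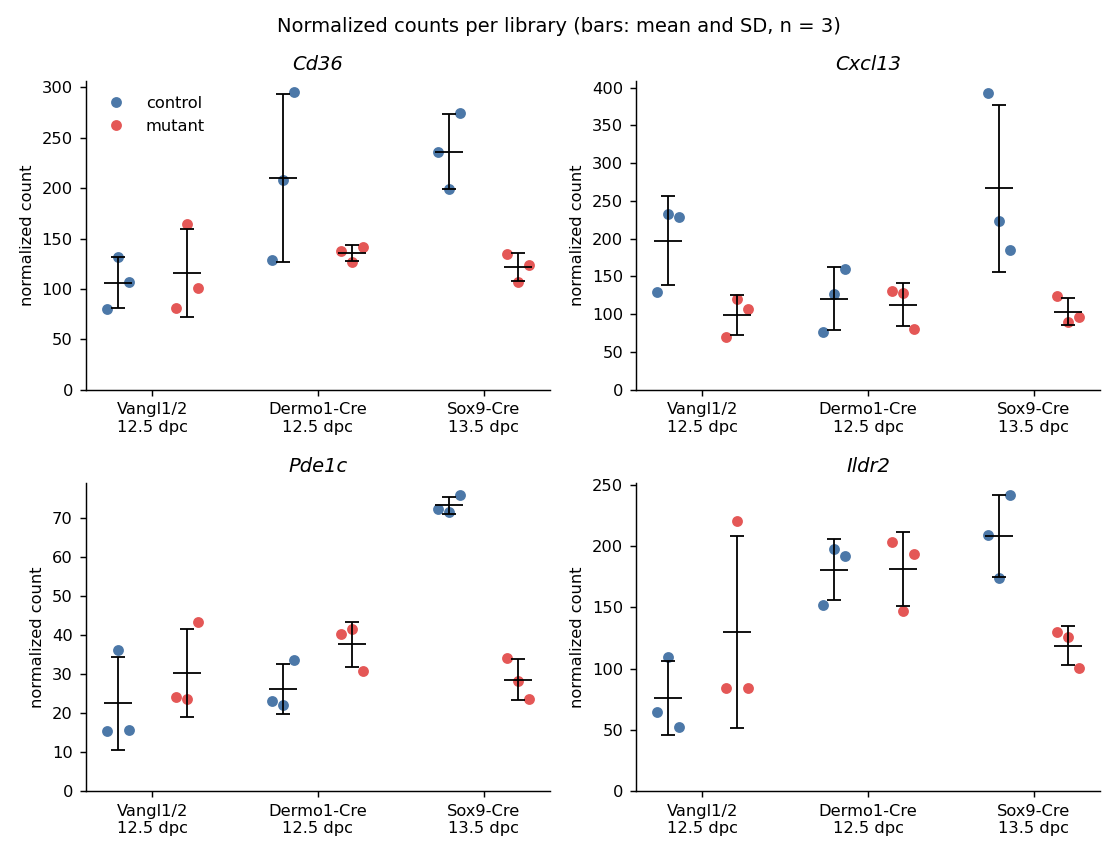
Normalized counts (vertical axis, from 0) of the 4 genes in each of the 18 libraries, controls in blue and mutants in red, for the 3 experiments along the horizontal axis. Points are libraries and bars give the mean and the SD of 3 libraries. In the Sox9-Cre panels, by which the genes were chosen, the groups are apart, with 3 Pde1c controls between 71.7 and 75.8 and mutants at or below 34.2. Elsewhere the groups overlap, except Cxcl13 in the Vangl1/2 experiment.

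Whether the 4 genes also moved when *Vangl2* was lost, or when *Wnt5a* was targeted in the mesenchyme, was asked in the experiments that the choice did not use. No gene of the 4 passed the test in either of them by limma, edgeR or DESeq2. At an unadjusted p under 0.05 in limma there was 1 in each experiment, *Cxcl13* in the *Vangl1/2* and *Cd36* in the *Dermo1-Cre* lungs. Few genes passed at all. In the *Vangl1/2* experiment the share of tested genes called was 0.00699% by limma, 0.00699% by edgeR and 0.14% by DESeq2, with 20.5% at an unadjusted p under 0.05 in limma. In the *Dermo1-Cre* experiment, with 14277 genes tested, the shares were 0.014%, 0.014%, 0.7% and 10.2%. The 1 of 4 at an unadjusted p is to be read against these shares of 20.5% and 10.2%.

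*Cxcl13* was the member that separated the groups in the *Vangl1/2* lungs. It had 129, 233 and 229 normalized counts in the controls and 69.4, 120 and 107 in the mutants (197 ± 58.9 and 99.0 ± 26.4, SD, n = 3). Every mutant library lay below every control, with control replicate 1 only slightly above mutant replicate 2. Of all genes tested, 8.68% were lower in every mutant library in this experiment. The log2 fold change was -0.97 (SE 0.29, 95% interval -1.63 to -0.31), or 0.509 times the control level, with an unadjusted p of 0.00928 and an adjusted p of 0.233 (limma). By the size of the change, 0.301% of the tested genes fell further. DESeq2 gave -0.99 and an adjusted p of 0.122. With a trend on transcript length taken out of each library, the value was -0.62, with an unadjusted p of 0.0910 and an adjusted p of 0.389 (limma). Without control replicate 2, the value was -0.83 and passed the threshold (adjusted p = 0.0366, limma), but so did 6183 genes, 43.2% of those tested, and the call is read against that share.

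The *Cxcl13* values of *Dermo1-Cre* lungs overlapped. There were 76.2, 126 and 160 normalized counts in the controls and 130.1, 128 and 79.9 in the mutants. The log2 fold change was -0.07 (SE 0.27, 95% interval -0.68 to 0.55, adjusted p = 0.945, limma). The difference of the effects between the *Vangl1/2* and the *Dermo1-Cre* experiment, each taken within its own table, was -0.90 (SE 0.45, 95% interval -1.88 to 0.07, adjusted p = 0.387, limma), so that the 2 effects were not shown to differ.

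*Cd36* was nearest to the threshold in the *Dermo1-Cre* lungs. It had 128, 208 and 295 normalized counts in the controls and 138, 127 and 142 in the mutants (210.4 ± 83.5 and 136 ± 7.69). The mutants lay together at the level of control replicate 1, and the groups overlap. Of all genes tested, 7.92% were lower in every mutant library in this experiment, and none of the 4 was. The log2 fold change was -0.55 (SE 0.24, 95% interval -1.10 to -0.0012, unadjusted p = 0.0496, adjusted p = 0.490, limma), -0.27 without control replicate 3, the highest library, and -0.87 without control replicate 1, the lowest control. *Cd36* in the *Vangl1/2* lungs had 80.6, 131 and 107 in the controls and 81.5, 165 and 101.4 in the mutants, and the groups overlap, with mutant replicate 2 above every control (log2 fold change 0.09, SE 0.29, 95% interval -0.57 to 0.75, adjusted p = 0.870, limma). Its sign there turned with the libraries used, to -0.10 without control replicate 1 and -0.20 without mutant replicate 2, and it was 0.25 without control replicate 2 (adjusted p = 0.497, limma).

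*Pde1c*, which fell most in the *Sox9-Cre* mutants, had higher means in the mutants of both other experiments, without passing the test. In the *Dermo1-Cre* lungs it had 23.0, 22.1 and 33.7 normalized counts in the controls and 40.3, 41.7 and 31.0 in the mutants, which overlap (log2 fold change 0.52, SE 0.25, 95% interval -0.04 to 1.08, adjusted p = 0.517, limma). *Vangl1/2* lungs had 15.5, 36.3 and 15.8 in the controls and 24.2, 23.6 and 43.3 in the mutants (0.47, SE 0.40, 95% interval -0.46 to 1.40, adjusted p = 0.491). Control replicate 2 was the highest control here, and without it the value was 0.86 (adjusted p = 0.0749), against 0.19 without mutant replicate 3, the highest mutant. With the trend on transcript length taken out, the value was -0.03, so its direction in this experiment depends on that step. *Pde1c* has the longest exons of the 4 genes, and the fewest reads in these experiments, 15 to 44 per library.

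*Ildr2* had nearly equal means in both groups of *Dermo1-Cre* lungs. It had 152, 198 and 192 normalized counts in the controls and 204, 147 and 194 in the mutants (181 ± 24.8 and 181 ± 30.3, log2 fold change 0.00059, SE 0.15, 95% interval -0.34 to 0.34, adjusted p = 0.999, limma). *Vangl1/2* lungs had 65.1, 110.0 and 52.5 in the controls and 84.5, 221 and 84.7 in the mutants, and mutant replicate 2 set the mean (log2 fold change 0.68, SE 0.41, 95% interval -0.27 to 1.64, adjusted p = 0.340, limma). Without that library the value was 0.23, and without control replicate 2 it was 0.98 (adjusted p = 0.0553). The differences of the effects between both experiments were 0.64 for *Cd36* (95% interval -0.29 to 1.56), -0.05 for *Pde1c* (-1.11 to 1.02) and 0.68 for *Ildr2* (-0.38 to 1.75), with adjusted p of 0.463, 0.970 and 0.489 (limma). In that test 1 of 14066 genes passed, and 1825 had an unadjusted p under 0.05. Without *Vangl1/2* control replicate 2, a setting chosen after seeing the data, the differences were 0.80 for *Cd36*, -0.76 for *Cxcl13*, 0.34 for *Pde1c*, which changed sign, and 0.98 for *Ildr2* (adjusted p = 0.163, 0.223, 0.576 and 0.106, limma), while 4647 of the 14066 genes passed.

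**Figure D2:**
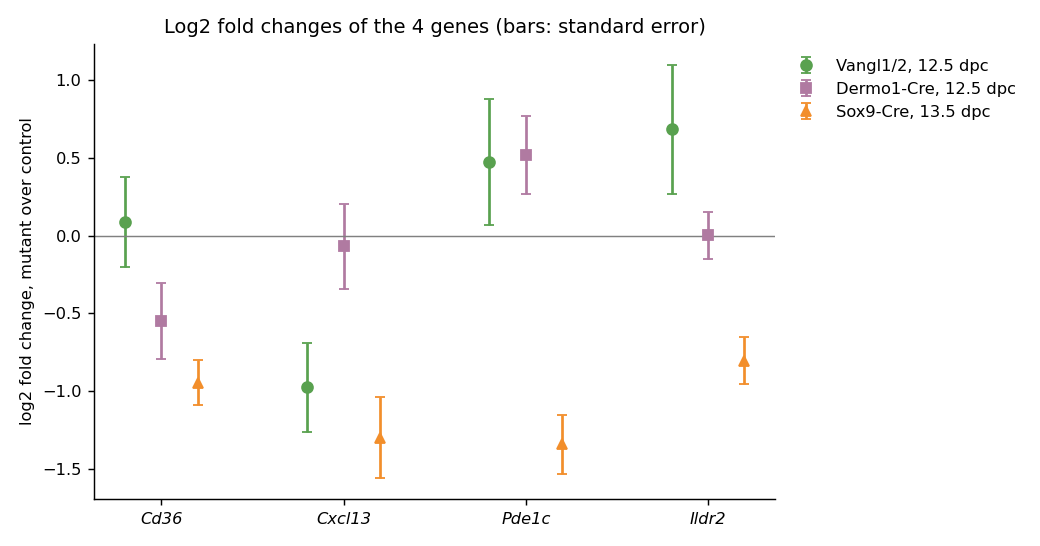
Log2 fold changes of mutant over control on the log2(normalized count + 1) scale (vertical axis) for the 4 genes (horizontal axis) in the Vangl1/2 (circles), Dermo1-Cre (squares) and Sox9-Cre (triangles) experiments, with bars of 1 standard error from 3 against 3 libraries. The triangles lie between -1.34 and -0.80, as the choice of the genes required. Of the others, Cxcl13 in the Vangl1/2 lungs at -0.97 is the lowest, and Pde1c is at 0.47 and 0.52.

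The levels of the 4 genes were also set side by side across the 6 groups, as counts per 1000000 reads on genes (CPM). The tables were normalized separately and stage, genotype and experiment change together, so no test was made. *Cd36* was highest in *Sox9-Cre* controls (14.6 ± 2.35 CPM, SD, n = 3) and in *Dermo1-Cre* controls (13.1 ± 5.29), which did not differ beyond their spread, followed by *Dermo1-Cre* mutants (8.49 ± 0.455), *Sox9-Cre* mutants (7.50 ± 0.968) and the *Vangl1/2* mutants (6.11 ± 2.30) and controls (5.50 ± 1.52). *Cxcl13* ran from 16.5 ± 6.87 in *Sox9-Cre* controls through 10.2 ± 3.19 in *Vangl1/2* controls to 7.52 ± 2.66 and 7.05 ± 1.77 in *Dermo1-Cre* controls and mutants, 6.37 ± 1.25 in *Sox9-Cre* mutants and 5.22 ± 1.43 in *Vangl1/2* mutants, and no 2 neighbours in that order lay further apart than the larger of their SDs. *Pde1c* stood out in the *Sox9-Cre* controls at 4.53 ± 0.142, above *Dermo1-Cre* mutants at 2.36 ± 0.365, and the other 4 groups lay between 1.18 and 1.77. *Ildr2* was alike in *Sox9-Cre* controls (12.9 ± 2.10) and the *Dermo1-Cre* mutants (11.4 ± 1.84) and controls (11.2 ± 1.56), and lower in *Sox9-Cre* mutants (7.31 ± 1.12) and the *Vangl1/2* mutants (6.85 ± 4.15) and controls (3.95 ± 1.77). Neighbours in the orders of *Cd36* and *Ildr2* lay within the larger of their SDs except for *Cd36* in *Dermo1-Cre* and *Sox9-Cre* mutants and *Ildr2* in *Dermo1-Cre* controls and *Sox9-Cre* mutants. *Sox9-Cre* controls were the highest group for each of the 4 genes, and the *Sox9-Cre* mutants held each of them within 1 SD of a group from E12.5. For *Ildr2* that group was the *Vangl1/2* mutants, with their wide SD of 4.15. The choice of the genes required the *Sox9-Cre* controls to lie above the mutants, so this order carries that choice with it.

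Per kilobase of exon (RPKM), *Cxcl13* was the most abundant of the 4 in *Sox9-Cre* controls at 14.3 ± 5.97, followed by *Cd36* at 4.07 ± 0.654, *Ildr2* at 1.56 ± 0.254 and *Pde1c* at 0.225 ± 0.0071. The median over 14176 tested genes with a length was 6.26. *Cxcl13* exceeded 72.2% of these genes and *Cd36* 39.1%, while *Ildr2* and *Pde1c* exceeded 22.6% and 2.94%.

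No pathway gene around *Cd36* passed the test with all libraries. Of 44 tested genes of fatty acid uptake and handling in the *Sox9-Cre* lungs, none passed by limma, edgeR or DESeq2, and 2 were lower and 0 higher at an unadjusted p under 0.05 (all genes 3.9%). The background of calls there was 0% by limma, 0% by edgeR and 0.063% by DESeq2. On the log2 scale the list had a median of -0.04 and all 14293 genes one of 0.0013. Lowest by p was *Lpl*, the lipase that releases fatty acids from lipoproteins, with 1326, 1325 and 1471 normalized counts in the controls and 1122, 1293 and 1168 in the mutants (log2 fold change -0.20, SE 0.07, adjusted p = 1.0, limma). *Gpihbp1*, which holds that lipase on capillaries, had 53.4 ± 8.2 and 47.3 ± 9.7. The fatty acid binding proteins *Fabp4* (36.8 ± 11.8 and 25.6 ± 7.6) and *Fabp5* (878 ± 88.4 and 863 ± 116), the lipid-sensing receptor *Pparg* (19.9 ± 6.9 and 14.3 ± 5.2) and the Cd36 ligand *Thbs1* (14375 ± 304 and 13227 ± 1085) did not pass either. With *Vangl2* lost, 3 of the 44 were higher and 4 lower at an unadjusted p under 0.05 (15.9%, against 20.5% of all genes). *Lpl* was again first (1293 ± 205 and 1816 ± 320.1, log2 fold change 0.49, SE 0.16, adjusted p = 0.233, limma). In the *Dermo1-Cre* lungs 2 were higher and 4 lower (13.6%, against 10.2% of all genes). There *Tcf15*, a transcription factor that with *Meox2* drives fatty acid transport genes in heart capillaries, came first with 48.1, 57.2 and 50.5 in the controls and 28.2, 27.8 and 29.0 in the mutants (log2 fold change -0.85, SE 0.19, adjusted p = 0.198, limma). None of either passed the adjusted threshold by limma, edgeR or DESeq2. Without *Vangl1/2* control replicate 2, where limma called 43.2% of all genes, 9 of the 44 passed as higher and 9 as lower in that experiment.

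No listed gene of lymphoid tissue around *Cxcl13* passed the test with all libraries. Of 43 chemokines, receptors and organizer signals, 28 reached the minimum for a test in the *Sox9-Cre* table. The receptor *Cxcr5* lay between 14.03 and 47.5 normalized counts in the 18 libraries with no separation of groups, and the B cell gene *Ms4a1* reached at most 0.992. *Tnfsf11*, the organizer cytokine RANKL, was below the minimum in all 3 tables. The stromal chemokine *Cxcl12* had 2871, 2189 and 2014 in *Sox9-Cre* controls and 2029, 2012 and 2049 in mutants (log2 fold change -0.20, SE 0.11). Its control replicate 1 was the highest, as for *Cxcl13*, and the groups overlap. *Ltbr*, the lymphotoxin receptor of organizer cells, had 1310.1 ± 35.3 and 1308 ± 93.1. In the *Sox9-Cre* lungs 2 list genes were lower and 0 higher at an unadjusted p under 0.05 (7.14%, against 3.9% of all genes). First was *Aldh1a2*, the enzyme that makes retinoic acid (1978, 1730.4 and 1900.4 against 1675, 1775 and 1502, log2 fold change -0.18, SE 0.08, adjusted p = 1.0, limma). Among *Vangl1/2* lungs 0 of 28 had an unadjusted p under 0.05, against 20.5% of all genes. *Relb*, an NF-kappaB subunit downstream of *Ltbr*, was first there (109 ± 3.3 and 85.8 ± 14.8, adjusted p = 0.273, limma). In the *Dermo1-Cre* lungs 1 of 27 was higher and 3 were lower (14.8%, against 10.2% of all genes). The retinoic acid receptor *Rara* was first (1033 ± 19.9 and 911 ± 62.4, adjusted p = 0.367, limma). In each of the 3 experiments 0 of the list passed the adjusted threshold by limma, edgeR or DESeq2, and the medians were -0.13, -0.07 and -0.0077 on the log2 scale in the *Sox9-Cre*, *Vangl1/2* and *Dermo1-Cre* lungs. Without *Vangl1/2* control replicate 2, 2 of the 28 passed as higher and 1 as lower there, against 43.2% of all genes.

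Among the cyclic nucleotide genes, no relative of *Pde1c* passed the test in the *Sox9-Cre* lungs. *Pde1a* had 389 ± 37.8 normalized counts in the controls and 384 ± 16.9 in the mutants, and *Pde1b* had 57.4 ± 7.2 and 53.6 ± 13.2. *Pde3a*, which is inhibited by cGMP, had 257 ± 18.4 and 281 ± 96.5, and the cGMP-specific *Pde5a* had 7308 ± 391 and 7439 ± 1029. Of the 44 genes of the list that were tested, 1 was lower and 0 were higher at an unadjusted p under 0.05 (2.27%, against 3.9% of all genes). That 1 was the cAMP-specific *Pde7b* (149, 150.3 and 160 against 122, 134 and 116, log2 fold change -0.30, SE 0.11, adjusted p = 1.0, limma). In the *Vangl1/2* lungs, by contrast, 12 of 45 were higher and 2 lower at that level, 31.1% against 20.5% of all genes, and the list's median was 0.17 against -0.0093 for all genes. They included *Npr3*, the natriuretic peptide clearance receptor (2113, 2578 and 2165 against 2862, 3082 and 3291, log2 fold change 0.43, SE 0.11, adjusted p = 0.233). *Pde3a* there had 180, 342 and 205 in the controls and 328, 392 and 374 in the mutants (0.64, SE 0.23), and *Pde5a* had 7125 ± 1641 and 9305 ± 444 (0.41, SE 0.16). Control replicate 2 had the highest control value of *Npr3*, *Pde3a* and *Pde5a*, as it had of the lung mesenchyme markers, whose part in these values was not tested. Without that library, 19 of the 45 passed as higher and 5 as lower, 53.3% against 43.2% of all genes, with a median of 0.33. For *Dermo1-Cre* lungs 2 of 45 were lower and 0 higher at an unadjusted p under 0.05 (4.44%, against 10.2% of all genes). *Pde9a* was first (423 ± 24.2 and 361 ± 29.6, adjusted p = 0.414, limma). With all libraries, 0 of the list passed the adjusted threshold by limma, edgeR or DESeq2 in any experiment.

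The groups of the other angulins overlapped in the *Sox9-Cre* lungs, where *Ildr2* was lower. *Lsr* had 844, 762 and 788 normalized counts in the controls and 935, 731 and 755 in the mutants, and *Ildr1* had 33.7, 55.8 and 25.9 and then 39.0, 29.2 and 47.2. The tricellular junction protein *Marveld2* (191 ± 26.4 and 206 ± 16.9) and *Ocln* of the tight junction strand (339 ± 4.3 and 352 ± 59.5) had slightly higher means in the mutants within the spread of libraries. Of 37 junction genes tested, 1 was lower and 0 higher at an unadjusted p under 0.05 (2.7%, against 3.9% of all genes). That 1 was the adhesion molecule *Jam2* (295 ± 10.2 and 258 ± 6.3, log2 fold change -0.19, SE 0.08, adjusted p = 1.0, limma). With *Vangl2* lost, 7 of 38 were higher and 2 lower (23.7%, against 20.5% of all genes), with the receptor and junction protein *Cxadr* first (1519 ± 217 and 1988 ± 141, log2 fold change 0.40, adjusted p = 0.233). For *Dermo1-Cre* lungs 3 of 37 were higher and 6 lower (24.3%, against 10.2% of all genes), with the lung claudin *Cldn18* first (1366 ± 70.8 and 1198 ± 22.8, log2 fold change -0.19, adjusted p = 0.301). None of the list passed the adjusted threshold by limma, edgeR or DESeq2 in any experiment with all libraries, and without *Vangl1/2* control replicate 2 there were 9 higher and 5 lower of the 38, against 43.2% of all genes. *Ildr1* had lower means in the mutants of both E12.5 experiments (49.5 ± 3.0 and 34.1 ± 13.8 in *Vangl1/2*, 36.3 ± 3.5 and 28.0 ± 8.6 in *Dermo1-Cre*), without a call.

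**Figure D3:**
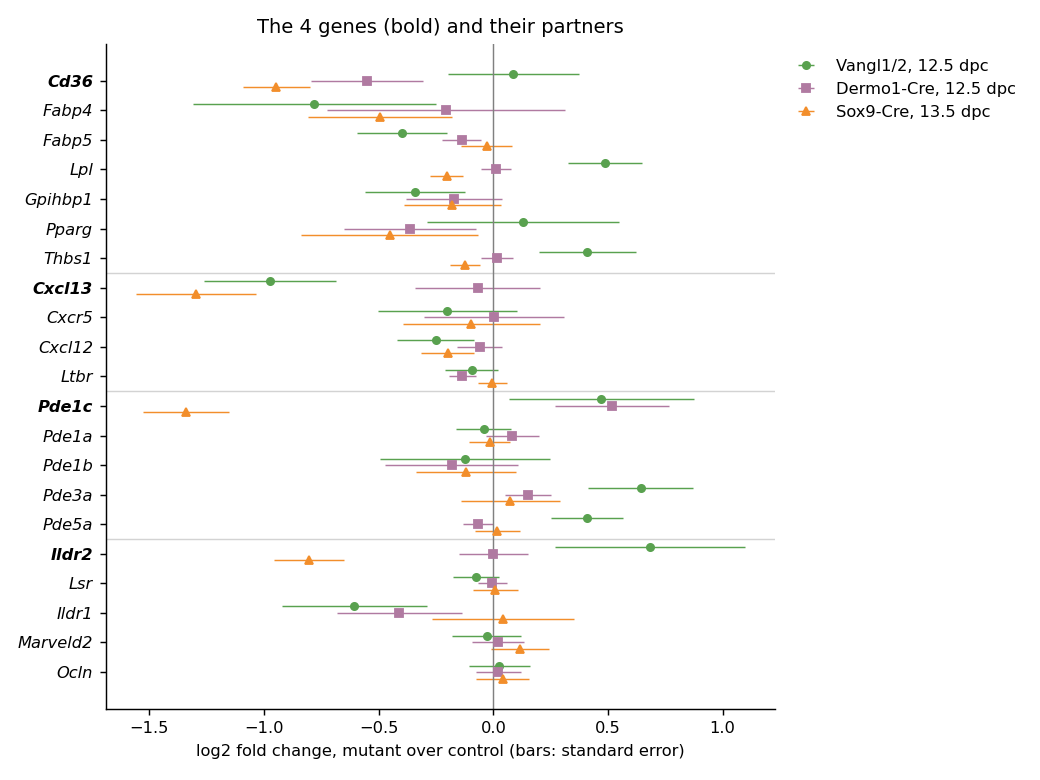
Log2 fold changes of mutant over control (horizontal axis, log2(normalized count + 1) scale, bars of 1 standard error, 3 against 3 libraries) for the 4 genes, in bold, and the named partners of each below it, in the 3 experiments. In the Sox9-Cre experiment (triangles) the partners lie between -0.50 for Fabp4 and 0.12 for Marveld2, above each of the 4 genes, which were chosen for being low there.

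In bulk tissue, fewer cells of a type and less RNA per cell cannot be told apart, so the markers of the cell types that a dissected lung can hold are given beside the 4 genes. In the *Sox9-Cre* libraries the 20 cardiomyocyte markers, which can come from the muscular sleeve of the pulmonary veins or from attached heart tissue, summed to 6232, 9820 and 21640 normalized counts in the controls and 7009, 3240 and 1114 in the mutants. Of the 18 that were tested, 15 were lower and 0 higher at an unadjusted p under 0.05 (83.3%, against 3.9% of all genes), with a median log2 fold change of -2.13, 1 passed the adjusted threshold in DESeq2 and 0 in limma and edgeR, and none of the 20 was at 0 in all 6 libraries. *Myh6*, the atrial myosin, had 1250, 2104 and 4966 in the controls and 1032, 516 and 56.4 in the mutants. *Cd36* is expressed in cardiomyocytes, and its 2 highest libraries in the series, *Dermo1-Cre* control replicate 3 and *Sox9-Cre* control replicate 3, had the 2 highest cardiomyocyte sums, 23957 and 21640. In *Dermo1-Cre* lungs the sums were 1465, 7727 and 23957 in the controls, in the order of their *Cd36*, and 3377, 5230 and 1011 in the mutants, whose highest *Cd36* (142) went with the lowest sum. The marker median there was -1.26, with 0 of 15 tested at an unadjusted p under 0.05, against 10.2% of all genes. In the *Vangl1/2* table, mutant replicate 2 held both the highest *Cd36* (165) and the highest sum (8716), and control replicate 3 had the next highest sum (6057) and a *Cd36* of 107. *Sox9-Cre* mutant replicate 1 had a sum of 7009 with a *Cd36* of 135, and control replicate 1 had 6232 with 236. The choice of *Cd36* required that order of its 2 values. The part of cardiomyocyte content in the *Cd36* values was not tested. Without *Sox9-Cre* control replicate 3 the log2 fold change of *Cd36* was -0.83. The 14 blood endothelial markers summed to between 19364 and 19773 in the *Sox9-Cre* controls and between 18814 and 19145 in the mutants. *Cd36* per 1000 counts of these was 12.1 ± 1.95 in those controls and 6.43 ± 0.697 in those mutants. This ratio was chosen after the values were seen, and here it carries the choice of *Cd36* with it. In controls and mutants it was 10.8 ± 4.42 and 7.27 ± 0.304 in the *Dermo1-Cre* lungs, where the groups overlap. It was 5.61 ± 1.31 and 6.02 ± 2.25 in the *Vangl1/2* lungs, which overlap too. The 11 macrophage markers summed to 4007, 3741 and 3592 in *Sox9-Cre* controls against 3363, 3659 and 3226 in mutants, which overlap.

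The 8 mesothelial markers were lower in every *Sox9-Cre* mutant as a sum, with 6594, 5582 and 6390 in the controls and 4979, 5555 and 4645 in the mutants. The gap was narrow, 5582 against 5555. Blood endothelial and lung mesenchyme sums were also lower in every mutant, with lowest controls of 19364 and 71224 and highest mutants of 19145 and 71105. At an unadjusted p under 0.05, 5 of the 8 were lower and 0 higher (62.5%, against 3.9% of all genes), with a median of -0.42 on the log2 scale, and none was at 0. *Wt1* had 817, 704 and 735 against 421, 649 and 538, and *Upk3b* 1709, 1443 and 1681 against 1268, 1430.3 and 1105. *Krt19* (587, 606 and 581 against 642, 577 and 579) and *Upk1b* (193, 159 and 154 against 222, 201 and 99.4) overlapped. Their log2 fold changes were 0.02 and -0.03. Of the 8 mesothelial markers, 3 were lower in every mutant library, against 4.36% of all genes. *Ildr2* was low where the mesothelial sums were low in the *Dermo1-Cre* table. It had 152 and 147 in the 2 libraries of the smallest sums (4606 and 4949) and 192 to 204 in the other 4. In *Vangl1/2* mutant replicate 2, the library with the most *Ildr2* of its table (221), the mesothelial sum was 10261, against 5043 to 7588 in the other 5. Of the 7 mesothelial markers tested in that experiment, 4 were higher and 0 lower at an unadjusted p under 0.05 (57.1%, against 20.5% of all genes), with a median of 0.50. *Ildr2* per 1000 mesothelial counts, a ratio chosen after the values were seen, was 31.7, 31.2 and 37.8 in *Sox9-Cre* controls and 26.1, 22.6 and 21.6 in mutants, values that carry the choice of *Ildr2* with them. In *Dermo1-Cre* lungs it was 33.1, 33.9 and 34.6 against 32.8, 29.7 and 32.7, and in *Vangl1/2* lungs 10.2, 15.8 and 10.4 against 11.1, 21.5 and 13.4. Its means in controls and mutants were 12.1 and 15.4 in the *Vangl1/2*, 33.9 and 31.7 in the *Dermo1-Cre* and 33.6 and 23.4 in the *Sox9-Cre* lungs. The part of the mesothelium in the *Ildr2* values was not tested.

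The 12 lung mesenchyme markers summed to 86079, 71224 and 75163 in *Sox9-Cre* controls and 68699, 71105 and 64146 in mutants. Control replicate 1 was the highest, and it also had the most *Cxcl13*. Of the 12, 2 were lower and 0 higher at an unadjusted p under 0.05 (16.7%, against 3.9% of all genes), and the median was 0.02. The 7 lymphatic endothelial markers (4158 to 5148) and the 10 lymphocyte markers (78 to 177) overlapped between groups. For *Pde1c*, the 10 neuronal markers were 2000, 1903 and 2561 in the controls and 2642, 803 and 820 in the mutants. Mutant replicate 1 had the largest neuronal sum of the 6 libraries and 34.2 normalized counts of *Pde1c*. That value lay below all controls, as the choice of *Pde1c* required. The 8 smooth muscle markers overlapped, at 11735 to 14537 against 11893 to 13411. In the *Dermo1-Cre* mutants, where the mean of *Pde1c* was higher, the neuronal sums were 1499, 3186 and 3518 against 715, 671 and 1126. All 10 neuronal markers were higher at an unadjusted p under 0.05 in limma, against 10.2% of all genes in either direction. In DESeq2, 7 were past the adjusted threshold, against 0.7% of all genes. The 8 smooth muscle markers there were 13821, 12032 and 16673 in the controls and 8171, 12995 and 8397 in the mutants. Of these, 6 were lower and 0 higher at an unadjusted p under 0.05 in limma (75%, against 10.2% of all genes). Their median log2 fold change was -0.51, and that of the cardiomyocyte markers was -1.26. The part of these cell types in the *Pde1c* values was not tested.

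**Figure D4:**
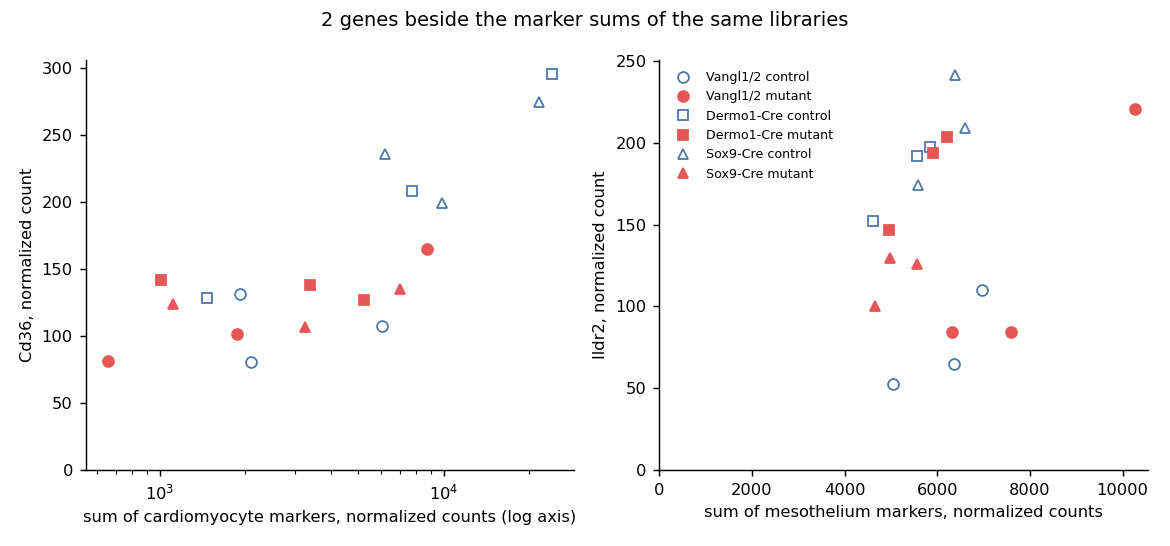
Left, Cd36 (normalized counts) against the summed normalized counts of 20 cardiomyocyte markers on a log axis, and right, Ildr2 against the sum of 8 mesothelial markers on a linear axis, 1 point for each of the 18 libraries, with open blue symbols for controls and filled red ones for mutants. The 2 highest Cd36 libraries have the 2 highest cardiomyocyte sums, 23957 and 21640, and in the Vangl1/2 table (circles) the highest Cd36 (165) goes with the highest sum (8716). The Vangl1/2 libraries hold less Ildr2 at a given mesothelial sum than the other tables.

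Over the 18 libraries, as deviations from the mean of the own table on the log2 scale, the genes most like each of the 4 were picked by Pearson's r among 13980 genes tested in all 3 tables. The libraries share their genotype groups, and the *Sox9-Cre* libraries enter the choice of the 4 genes, so r is also given over the 12 libraries of the other tables. The pick used all 18 libraries, these 12 included, so both values of r are raised by it. Both are descriptions with no test. For *Cd36* these were *Hcn4*, the pacemaker channel of the heart (r = 0.89, and 0.89 over the 12), *Fgl2*, a fibrinogen-like protein (0.89 and 0.83), and *Corin*, the cardiac protease that activates atrial natriuretic peptide (0.89 and 0.86). For *Ildr2* they were *Tmem108* (0.93 and 0.94), *Pkhd1l1*, a fibrocystin relative (0.93 and 0.93), and the mesothelial *Upk3b* (0.91 and 0.92). For *Cxcl13* they were *Angpt2*, a ligand of the endothelial receptor Tek (0.85 and 0.81), *Itm2a* (0.83 and 0.86) and *Plau*, the urokinase-type plasminogen activator (0.82 and 0.87). For *Pde1c* they were *Aph1c*, a gamma-secretase subunit (0.84 and 0.75), the glutamate receptor subunit *Gria4* (0.83 and 0.86) and *Cpeb3*, an mRNA-binding protein (0.79 and 0.71).

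Among the 4 genes themselves, over the 12 libraries that the choice did not use, r was 0.58 between *Cd36* and *Ildr2*, 0.49 between *Cd36* and *Cxcl13*, and 0.30 between *Pde1c* and *Ildr2*. It was 0.08 between *Cd36* and *Pde1c*, 0.05 between *Cxcl13* and *Pde1c*, and -0.10 between *Cxcl13* and *Ildr2*. *Cd36* was thus the gene whose course was most like those of *Ildr2* and *Cxcl13*, while these 2 showed little likeness to each other.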

How the data were processed

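Bulk RNA-Seq of embryonic lungs was deposited as 1 table of 23420 genes per experiment, with 6 libraries each and 18 in all. RNA was extracted by the authors with TRIzol and the RNeasy kit and sequenced on a HiSeq 2000 or a HiSeq4000. The submitters' processing notes name Trim Galore, HISAT2, featureCounts, DESeq2 and mm10, without versions. The deposited unit is a signal: the authors corrected each library's gene counts with 1 size factor. All values were whole multiples of 1 step per library within 4.7e-05 reads, and reads on genes were recovered from them (15945393 to 19814346 per library). The tables also hold the authors' fold changes and p-values, which were not used.

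Genes that reached 10 normalized counts in 3 or more of the 6 libraries were tested by limma (version 3.58.1, R 4.3.3) on log2(normalized count + 1) with a mean-variance trend, within each table. Benjamini-Hochberg adjustment ran over all genes tested, at a threshold of 0.05. The alternatives were edgeR's quasi-likelihood test (4.0.16) and DESeq2 (1.42.0) on the recovered reads, TMM scaling, pseudocounts of 0.5 and 5, other filters, a trend on transcript length, a block for the replicate number, and leaving out each library. The script was tested on simulated data. For a single gene, 3 libraries against 3 allow an exact two-sided permutation p of 0.1 at the least. Lengths came from GENCODE and matched 98.3% of gene names. Python 3.11.15, numpy 2.4.6 and pandas 2.3.3 were used for the other values.

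The 4 genes, the lists of pathway genes and the markers were chosen with earlier results of these data known. The genes named are the 4, the targeted genes, partners of each of the 4, the list gene with the smallest p in each experiment, the 3 genes most like each of the 4, and defining markers of a list that moves with one of them. Some genes under that rule are not reported here. The genes at the edge of the rule, a B cell gene, the marker sums and ratios, and the list counts without Vangl1/2 control replicate 2 were added after the values were seen. The replicate numbers were checked as pairs by the correlation of deviations from the group means, which lay between -0.223 and 0.303, and were not taken to pair the libraries. Counting error is the floor of precision for these values and does not cover the spread between lungs.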

Additional observations from a re-analysis of the deposited data

How the results depend on the processing

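Of 178 alternative values of the 12 log2 fold changes of the 4 genes, 167 were the same as reported. In the Vangl1/2 and Dermo1-Cre lungs this means the same direction and the same side of the threshold. The Sox9-Cre values carry no test, and there it means the same direction and a move below 1 SD within groups. All 15 of each gene met this in the Sox9-Cre lungs, where the direction largely follows from the choice of the genes. The count of called genes was 20 with DESeq2 and 0 with the replicate block in the Vangl1/2 experiment (1 as reported), 100 and 16 in the Dermo1-Cre experiment (2 as reported), and 9 with DESeq2 in the Sox9-Cre experiment (0 as reported). Leaving out each library gave 0 to 6183, 0 to 54 and 0 to 13 genes. The 6183 came without control replicate 2, the 54 without mutant replicate 1 and the 13 without mutant replicate 1 (4 without mutant replicate 2). The replicate block changed no call of the 4 genes. In the Vangl1/2 lungs it lowered the unadjusted p of Cxcl13 from 0.00928 to 0.000315 and that of Ildr2 from 0.137 to 0.00889 (adjusted p = 0.214 for both, limma). Whether the replicate numbers pair libraries is not stated in the sources used here. Pde1c in the Vangl1/2 lungs turned to -0.029 with the trend on transcript length removed. Ildr2 in the Dermo1-Cre lungs, 0.00059 as reported, turned to -0.0014 with TMM scaling and -0.027 with that trend removed. Leaving out 1 library, the range was -0.20 to 0.31 for Cd36 in Vangl1/2 (reversed at -0.10 and -0.20), -1.25 to -0.74 for Cxcl13 in Vangl1/2 (past the threshold at -0.83, adjusted p = 0.0366 in limma, without control replicate 2, and adjusted p up to 0.596 in the other alternatives), -0.37 to 0.16 for Cxcl13 in Dermo1-Cre, and -0.12 to 0.14 for Ildr2 in Dermo1-Cre (reversed at -0.12, -0.09 and -0.05). The difference of the effects for Pde1c turned to 0.34 without Vangl1/2 control replicate 2, a setting chosen after seeing the data. The trend on transcript length moved Cxcl13 in Vangl1/2 to -0.62. The cause was not tested. With a minimum of 50 normalized counts Pde1c has no value in the Vangl1/2 and Dermo1-Cre tables. Depth limits Pde1c most, at 15 to 44 reads per library at E12.5.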
